A study of Mus musculus with 14 samples.

Results

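The Reg genes encode small secreted C-type lectins, and 6 of them were chosen by symbol from the 36401 genes of the deposited tables: Reg1, Reg2, Reg3a, Reg3b, Reg3g and Reg4. RNA had been sequenced from mouse small intestine in 14 libraries, with the distal region (ileum, 5 to 8 cm from the cecum) set against the proximal region (jejunum, 5 to 8 cm from the pylorus). In each region there were 2 libraries of sorted CD44+/CD24lo/CD166+ cells (called CD166 here), 2 of cells sorted as LGR5 stem cells and 3 of crypt cells, labelled as crypt stem cells. All mice were labelled as C57Bl6 males aged 6 to 12 weeks. The labels name no LGR5 reporter allele and do not say whether the libraries of a group came from separate mice, so p-values measure the spread between libraries, which may be technical. The study asked whether stem cells of the ileum and the jejunum keep separate identities. Of the 6 Reg genes, 5 passed the filter on low counts, as did 14750 genes in all, and Reg2 did not.

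Library totals ran between 6295828 and 20380369 counts. The sort marker Lgr5 was 5.48-fold higher in LGR5 cells and 3.44-fold higher in CD166 cells than in crypt cells, whereas the mRNA of Alcam, which encodes CD166, differed by 0.02 ± 0.16 (log2 difference ± SE) between CD166 and crypt cells. Ileum crypt 3 went against its label. Its value for Fabp6, an ileal bile acid carrier, was 25.8 normalised CPM (counts scaled to library size by the trimmed mean of M-values, TMM), with 2688 and 1987 CPM in ileum crypt 1 and 2. For Gata4, a jejunal factor, it had 233 CPM, with 28.0 and 45.4 CPM in those libraries. Against jejunum crypt 1, differences beyond counting error were found in 17.2% of 11473 genes, and the next closest pair of the series had 39.4%. It is called "the library labelled ileum crypt 3", and region results in crypt cells are given with and without it. Xist is transcribed from the inactive X chromosome of females. It was at 2.78 to 3.11 CPM in ileum crypt 2 and 3 and jejunum crypt 1 and 3. All the others, every sorted library among them, had 201 to 1675 CPM, although every library was labelled male. Comparisons of sorted with crypt cells are thus partly confounded with the Xist level.

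Reg1 and Reg2 belong to the group of the pancreatic stone protein, first known from the exocrine pancreas. Reg3b and Reg3g are antibacterial lectins that Paneth cells and enterocytes secrete into the gut lumen, where Reg3g binds the peptidoglycan of Gram-positive bacteria and keeps bacteria at a distance from the epithelium. Their transcription in the mouse gut is driven by bacteria, through MyD88, and by interleukin 22 and STAT3. Reg4 is known from secretory cells of the gut, among them enteroendocrine and goblet cells. The tables used here place 6 mouse Reg genes in 1 cluster on chromosome 6, in the order Reg3b, Reg3d, Reg3a, Reg2, Reg1, Reg3g, over 97990 bases of GRCm38.p6, and Reg4 lies apart on chromosome 3. Reg3d, a family gene outside the 6, is given beside them.

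The copies share no stretch as long as a read. The longest coding transcripts of Reg1 and Reg2 matched at 78.7% of aligned bases, those of Reg3b and Reg3g at 71.6% and those of Reg3a and Reg3b at 73.4%. No 50-base window, the length of a read, was within 2 mismatches of another Reg gene, and the closest windows differed at 3 bases between Reg3b and Reg3g and at 4 between Reg1 and Reg2. In Reg1, 32 of 876 windows were identical to transcripts of genes outside the family, as were 102 of 899 in Reg2, against none in Reg3a, Reg3b, Reg3g or Reg4.

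The sequences upstream of the genes are shown because neighbours in the cluster moved in opposite directions along the gut. Printed for the 5 measured genes are the bases just before the first transcribed base, from RefSeq (GRCm38.p6). They read 5′ to 3′ on the coding strand. The deposited counts were made on mm9, per the submitters' processing notes. For Reg4 the base taken as first, 98222156 of chromosome 3, lies inside the annotated gene, which begins at 98222138. The last bases printed for Reg4 are thus within that gene, and its motif distances hold for that start only. Capitals mark matches, on either strand (those on the opposite strand read as the reverse complement), to the letters of a TATA box, TATAAA, to the core of a STAT site, TTCNNNGAA, and to GATA-type sites, written TGATAA and also as AGATAA.
Reg1 (chr6:78425818-78425982, plus strand): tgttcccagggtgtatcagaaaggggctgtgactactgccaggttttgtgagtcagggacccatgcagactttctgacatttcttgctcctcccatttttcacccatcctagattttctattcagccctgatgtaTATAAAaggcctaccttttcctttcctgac
Reg3a (chr6:78380544-78380708, plus strand): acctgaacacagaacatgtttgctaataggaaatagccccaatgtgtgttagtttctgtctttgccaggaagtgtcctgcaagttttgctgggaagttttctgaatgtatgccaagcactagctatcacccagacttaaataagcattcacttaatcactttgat
Reg3b (chr6:78370720-78370884, plus strand): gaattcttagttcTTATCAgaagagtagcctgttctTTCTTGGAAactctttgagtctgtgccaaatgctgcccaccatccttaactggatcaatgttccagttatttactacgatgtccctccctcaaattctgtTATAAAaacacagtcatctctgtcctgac
Reg3g (chr6:78468875-78469039, minus strand): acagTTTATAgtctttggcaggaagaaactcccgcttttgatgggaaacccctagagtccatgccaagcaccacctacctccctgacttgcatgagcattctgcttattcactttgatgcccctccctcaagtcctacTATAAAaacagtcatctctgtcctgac
Reg4 (chr3:98221991-98222155, plus strand): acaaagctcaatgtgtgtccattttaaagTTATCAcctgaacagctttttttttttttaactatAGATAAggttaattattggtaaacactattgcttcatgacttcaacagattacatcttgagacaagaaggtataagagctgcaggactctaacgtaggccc
Within 250 bases upstream and 50 downstream of the start, TATAAA was present in 13.6% of 32851 mouse promoters, TTCNNNGAA in 8.3%, TGATAA in 9.05% and AGATAA in 11.2%. TATAAA began 30 bases before the start of Reg1 and Reg2, 29 before that of Reg3b and 27 before that of Reg3g. Only the window of Reg3b, among the 6 genes, held TTCNNNGAA, with its first base 129 bases upstream, and it also held TGATAA on the opposite strand at 152. Reg4 held TGATAA 136 and AGATAA 101 bases upstream, Reg1 held a TGATAA 234 bases upstream, beyond the stretch printed, and Reg3a held none of the 4 motifs. No 2 of the printed matches overlap. Over the 250 upstream bases Reg3b and Reg3g were identical at 69.2% of aligned positions and Reg1 and Reg2 at 62.4%. A match is a run of letters, not a site shown to be bound.

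The Reg genes split along the gut: Reg1 was lower in the ileum than in the jejunum and Reg3g was higher. These were the 2 of 5 tested genes called over the populations, each population weighted equally, by edgeR at an adjusted p under 0.05, where 5.01% of the 14750 genes were called, 2.99% higher and 2.02% lower in the ileum. Reg3b and Reg4 also had higher means in the ileum and Reg3a a lower one, without passing the test.

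**Figure D1:**
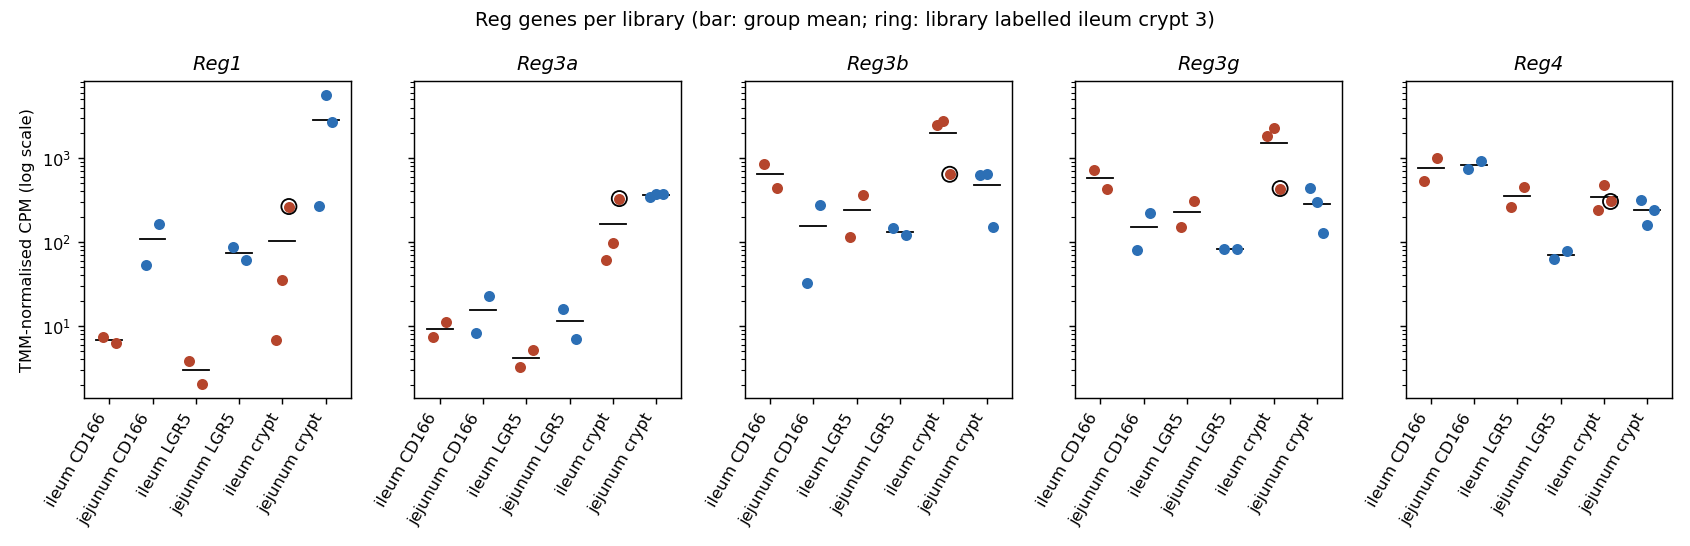
TMM-normalised CPM of 5 Reg genes in each library on a log scale, 1 panel per gene, with the region and population along the x axis; points are libraries (red ileum, blue jejunum), bars are group means and the ring marks the library labelled ileum crypt 3. Reg1 lies lower in the ileum in every population, Reg3g lies higher apart from the ringed library, and Reg4 is highest in CD166 cells of both regions.

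Reg1, the pancreatic stone protein gene (ENSMUSG00000059654), spanned the widest range of the family. CD166 cells held 7.48 and 6.25 CPM in the ileum, against 53.4 and 166 CPM in the jejunum. LGR5 cells held 3.86 and 2.04 CPM in the ileum, against 86.6 and 60.4 CPM in the jejunum. Crypt cells held 6.85, 35.7 and 265 CPM in the ileum, against 268, 5567 and 2681 CPM in the jejunum. Every ileal library was below every jejunal one of its population, but in crypt cells the margin was only that of the alike pair, 265 against 268 CPM. Such non-overlap in all populations, in either direction, was seen for 2.89% of tested genes.

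Over the populations Reg1 was 22.2-fold lower in the ileum (log2 difference -4.47 ± 0.88 SE, edgeR adjusted p = 0.0177). It was -5.23 (adjusted p = 0.00193) with the library labelled ileum crypt 3 left out, and without both of the alike pair -5.41. The call did not hold, with adjusted p of 0.0568 to 0.0987, when ileum CD166 1 or 2, ileum LGR5 1 or 2, jejunum CD166 2, or jejunum LGR5 1 or 2 was left out, although the difference stayed between -4.13 and -4.64. Within populations the differences were -4.0 ± 1.56 in CD166, -4.62 ± 1.64 in LGR5 and -4.79 ± 1.30 in crypt cells, with adjusted p of 0.636, 0.223 and 0.252 by edgeR. With that library left out the crypt difference was -7.07 (adjusted p = 0.0208).

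Reg1 is also a gene of the pancreas, and absorptive cells differ between the regions, so the markers of both were set beside it. Jejunum crypt 2, the library highest in Reg1, held pancreatic enzyme mRNAs: Pnlip at 4.85 CPM, Cela2a at 6.94 CPM, Cpa1 at 3.42 CPM and Ctrb1 at 10.4 CPM, with 5 of the 23 listed exocrine markers at 0. The other libraries had 12 to 15 of the 23 at 0. The summed level of the list was 345 to 1198 CPM in jejunum crypt and 394 to 462 CPM in ileum crypt libraries. In the sorted libraries it was 106 to 629 CPM, highest in jejunum CD166 1. Spink3, Clps and Rnase1, found in all 14 libraries, made up most of the crypt sums, with Spink3 alone at 999 CPM in jejunum crypt 2. The sum is thus no measure of pancreatic RNA. Jejunum crypt 3, with 2681 CPM of Reg1, had Pnlip, Cela2a and Cpa1 at 0, and Prss1 and Amy2a5 were at 0 in all 14 libraries.

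Enterocyte markers were lower in the ileum too. Of 20 enterocyte markers, 9 were lower and 2 higher in the ileum over the populations, with a median log2 difference of -1.16 against -0.01 for all tested genes. Their summed level was 13699, 9548 and 26957 CPM in ileum crypt libraries and 27644, 60643 and 39370 CPM in jejunum crypt libraries. In CD166 cells the sums were 2484 and 2773 CPM in the ileum against 3184 and 3873 CPM in the jejunum, and did not overlap. In LGR5 cells they were 2925 and 2550 CPM in the ileum against 3052 and 2382 CPM in the jejunum, and overlapped. Single markers were apart between the regions in LGR5 cells, among them Fabp1, a fatty acid carrier, at 9.38 and 10.7 CPM in the ileum against 120 and 91.9 CPM in the jejunum. Fabp1 was not called there. Of the 20 markers edgeR called 2 higher and 0 lower in ileum LGR5 cells, the opposite direction to Fabp1 and Reg1, although the median difference of the 20 was negative. The part of enterocyte RNA in the Reg1 values was not tested. In bulk libraries fewer cells of a type and less RNA per cell cannot be told apart.

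**Figure D2:**
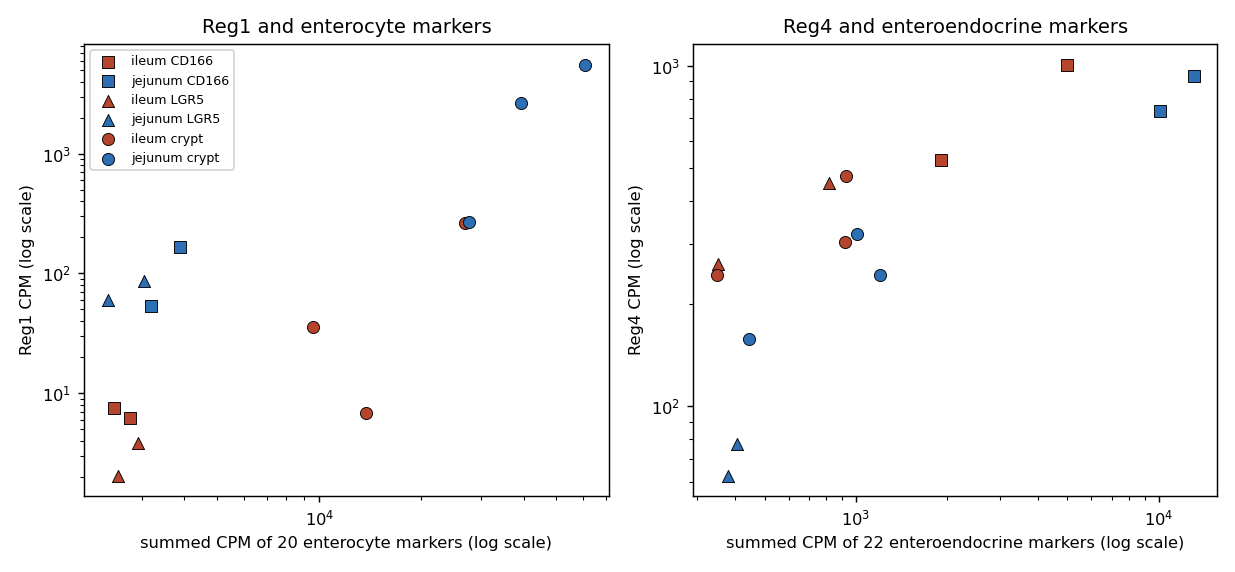
Left, Reg1 CPM against the summed CPM of 20 enterocyte markers; right, Reg4 CPM against the summed CPM of 22 enteroendocrine markers; both axes are log scales, each point is 1 library, shapes give the population and colours the region. The sorted libraries lie at 2382 to 3873 summed enterocyte CPM, the crypt libraries above them, and the CD166 libraries lie highest on both axes of the Reg4 panel.

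Reg2 (ENSMUSG00000023140), the neighbour of Reg1 and its closest relative in sequence, was at or near 0. No library had more than 2 counts of it and 8 of 14 had none. A count of 0 allows up to 0.164 CPM in the deepest library and up to 0.539 CPM in the shallowest, by a floor of 3 counts, for counting error only. Reg2 had no test in the filtered table. Reg3d (ENSMUSG00000068341) was also low, at 0 to 0.37 CPM in CD166, 0 to 0.83 CPM in LGR5 and 1.14 to 2.18 CPM in crypt libraries.

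Reg3g (ENSMUSG00000030017), the Gram-positive-binding lectin, was higher in the ileum. CD166 cells held 730 and 430 CPM in the ileum, against 79.6 and 223 CPM in the jejunum. LGR5 cells held 152 and 307 CPM in the ileum, against 82.2 and 82.7 CPM in the jejunum. Crypt cells held 1853, 2268 and 434 CPM in the ileum, against 435, 298 and 127 CPM in the jejunum. The regions did not overlap in CD166 or LGR5 cells, and in crypt cells only the library labelled ileum crypt 3 fell among the jejunal values. Over the populations Reg3g was 3.84-fold higher in the ileum (log2 1.94 ± 0.43 SE, edgeR adjusted p = 0.0256), and 2.09 (adjusted p = 0.00439) without that library. The adjusted p was above 0.05, at 0.0573 to 0.105, when ileum CD166 1 or 2, ileum LGR5 2, jejunum CD166 1 or 2, or jejunum LGR5 1 or 2 was left out, with differences of 1.74 to 2.24, and was 0.0806 without the crypt libraries high in Xist. Within CD166, LGR5 and crypt cells the differences were 1.94 ± 0.78, 1.48 ± 0.77 and 2.41 ± 0.65, none called by edgeR (adjusted p = 0.667, 0.441 and 0.252). Leaving out the library labelled ileum crypt 3 gave 2.85 in crypt cells, which was called (edgeR adjusted p = 0.0207).

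Reg3b (ENSMUSG00000071356), the other antibacterial lectin, had higher means in the ileum without passing the test. CD166 cells held 845 and 442 CPM in the ileum, against 32.5 and 277 CPM in the jejunum. LGR5 cells held 114 and 365 CPM in the ileum, against 146 and 120 CPM in the jejunum. Crypt cells held 2482, 2778 and 641 CPM in the ileum, against 636, 654 and 150 CPM in the jejunum. The regions were apart in CD166 cells and overlapped in LGR5 cells, and in crypt cells they overlapped through the library labelled ileum crypt 3 alone. The difference over the populations was 1.65 ± 0.55 on the log2 scale and was not called (edgeR adjusted p = 0.125), nor without that library (1.79, adjusted p = 0.0661). In crypt cells alone the difference was 2.04 ± 0.83 (edgeR adjusted p = 0.333), and 2.45 (adjusted p = 0.154) without that library.

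Paneth and goblet markers were also higher in the ileum. Of 15 tested Paneth markers 6 were higher over the populations and of 14 goblet markers 8, with none lower, among them Mmp7, a protease of Paneth granules, by 1.82 ± 0.37 (log2) and Agr2, a goblet chaperone, by 1.74 ± 0.32. Of 22 enteroendocrine markers 3 were higher and 1 lower, with a median of -0.16. Paneth markers summed to 44727 and 41850 CPM in ileum CD166 against 33279 and 53976 CPM in jejunum CD166 libraries, and overlapped. Mmp7 did not overlap there, at 1221 and 2053 CPM in the ileum against 563 and 780 CPM in the jejunum. In LGR5 cells the sums were 10067 and 10079 CPM in the ileum against 5357 and 7740 CPM in the jejunum. Crypt libraries had 38980, 46159 and 19175 CPM in the ileum against 24616, 10649 and 6444 CPM in the jejunum. The part of these cells in the Reg3 differences was not tested.

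Reg3b and Reg3g followed each other across libraries. The correlation of their log2 levels over the 14 libraries was 0.95 (Pearson) and 0.92 (Spearman), a description over libraries that share groups and depth. The ratio of Reg3b to Reg3g CPM, not corrected for length and so compared only between libraries, was 0.41 to 1.24 in CD166, 0.75 to 1.77 in LGR5 and 1.18 to 2.20 in crypt libraries, lowest in jejunum CD166 1 and highest in jejunum crypt 2.

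Reg3a (ENSMUSG00000079516), which lies between those genes in the cluster, had its higher means in the jejunum. CD166 cells held 7.29 and 11.1 CPM in the ileum, against 8.34 and 22.5 CPM in the jejunum. LGR5 cells held 3.22 and 5.17 CPM in the ileum, against 16.1 and 6.96 CPM in the jejunum. Crypt cells held 60.3, 96.5 and 329 CPM in the ileum, against 344, 376 and 376 CPM in the jejunum. The regions overlapped in CD166 cells and not in LGR5 or crypt cells, where the library labelled ileum crypt 3 was again next to jejunum crypt 1. The difference over the populations was -1.12 ± 0.40 (log2) and not called by edgeR (adjusted p = 0.158). Leaving that library out gave -1.47 (adjusted p = 0.0103), and in crypt cells alone -2.22 (adjusted p = 0.0283) against -1.17 with it. The ratio of Reg3a to Reg3g CPM, compared here only between libraries, was 0.01 to 0.03 in ileum CD166 and 0.10 in both jejunum CD166 libraries, 0.02 in both ileum LGR5 and 0.08 to 0.20 in jejunum LGR5 libraries, and 0.03, 0.04 and 0.76 in ileum crypt against 0.79, 1.26 and 2.96 in jejunum crypt libraries.

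Reg4 (ENSMUSG00000027876), the family member on chromosome 3, differed between regions in LGR5 cells. LGR5 cells held 262 and 453 CPM in the ileum, against 62.6 and 77.7 CPM in the jejunum. CD166 cells held 528 and 1007 CPM in the ileum, against 735 and 934 CPM in the jejunum. Crypt cells held 244, 475 and 304 CPM in the ileum, against 321, 158 and 243 CPM in the jejunum. The regions were apart in LGR5 cells and overlapped in CD166 and crypt cells. In LGR5 cells Reg4 was 5.09-fold higher in the ileum (log2 2.35 ± 0.46, edgeR adjusted p = 0.0466), the 1 Reg gene of 5 called there, where 0.698% of tested genes were called and 0.569% were higher.

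The LGR5 call of Reg4 was near its threshold. It was lost with total count scaling (adjusted p = 0.0577) and by limma-voom (0.0538). It was also lost, at adjusted p of 0.0612 to 0.424 and differences of 1.90 to 2.52, without ileum CD166 1 or 2, ileum crypt 1, ileum LGR5 2, jejunum CD166 1 or 2, jejunum crypt 3, or jejunum LGR5 1 or 2. Differences were -0.12 ± 0.44 in CD166 cells and 0.50 ± 0.36 in crypt cells. With the library labelled ileum crypt 3 left out the crypt difference was 0.58 and not called. Over the populations the difference was 0.91 ± 0.24 (edgeR adjusted p = 0.0543). Its adjusted p was 0.0487 with that library left out, and 0.0344 to 0.0433 without ileum crypt 1, jejunum crypt 1 or jejunum crypt 2. That the region difference of Reg4 varied with the population had an unadjusted p of 0.00557 and an edgeR adjusted p of 0.741 in the interaction test, where 0.0136% of genes were called, and DESeq2 gave 0.0371. Goblet markers summed to 9218 and 26608 CPM in ileum LGR5 and 3762 and 2292 CPM in jejunum LGR5 libraries, and the enteroendocrine markers to 351 and 818 CPM against 378 and 405 CPM; their part in the Reg4 difference was not tested.

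**Figure D3:**
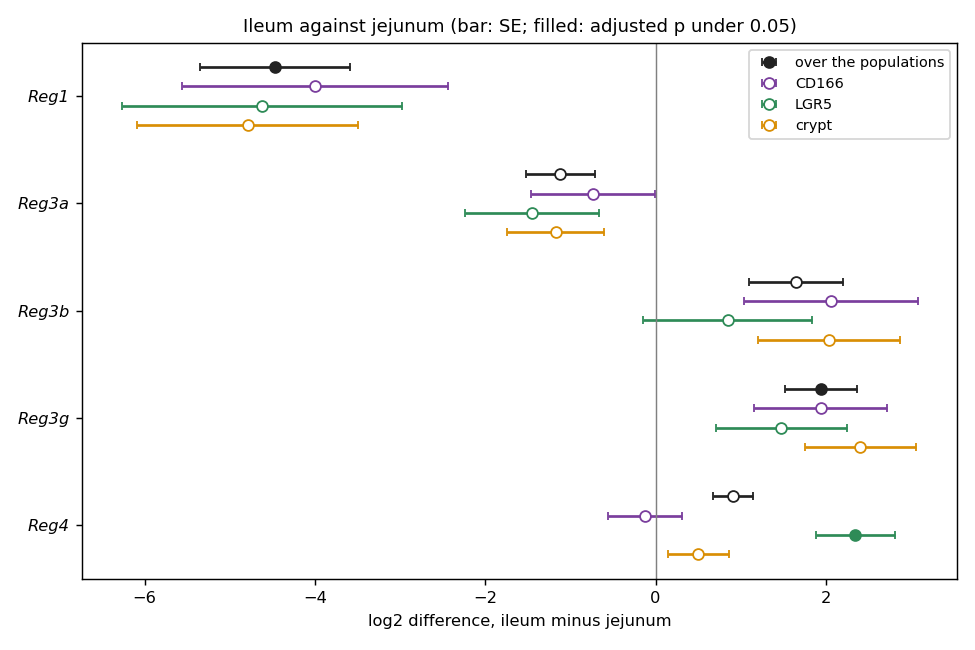
Log2 difference, ileum minus jejunum, of 5 Reg genes over the populations and within CD166, LGR5 and crypt cells; points are edgeR estimates, bars are ± 1 SE and filled points have an adjusted p under 0.05. Reg1 and Reg3a lie left of 0, Reg3b and Reg3g lie right of it, and Reg4 lies at 2.35 in LGR5 cells against -0.12 in CD166 cells.

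In crypt cells and in CD166 cells alone no Reg gene was called between the regions by edgeR, where 0% and 0.0203% of genes were called (0.0136% higher and 0.00678% lower in CD166 cells). At an unadjusted p under 0.05 there were 3 Reg genes in crypt cells and 2 in CD166 cells, among 1899 and 938 genes in all. DESeq2 called 2 in crypt cells, Reg1 and Reg3g, and 0 in CD166 cells, and limma-voom 0 in both. With the library labelled ileum crypt 3 left out edgeR called Reg1, Reg3a and Reg3g in crypt cells (adjusted p = 0.0208, 0.0283 and 0.0207). Over all the alternatives 0% to 5.87% of tested genes were called in crypt cells and 0% to 4.14% in CD166 cells. No Reg gene was called in the interaction test by edgeR, where 1 had an unadjusted p under 0.05, or by limma-voom, and DESeq2 called 1, Reg4. In that test 0% to 0.485% of tested genes were called over all the alternatives.

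Between populations, averaged over both regions, all 5 tested Reg genes were called lower in LGR5 than in crypt cells. Of all tested genes 31.5% were called there, 18.5% lower. Reg3a fell by 5.14 ± 0.58 (log2; 35.2-fold, edgeR adjusted p = 0.000153) and Reg1 fell by 5.19 ± 1.14 (36.4-fold, adjusted p = 0.00653). With the library labelled ileum crypt 3 left out Reg1 differed by -4.05 (adjusted p = 0.00804), without both of the alike pair by -4.32 (0.00105) and by limma-voom by -4.17 (0.0431). Their LGR5 libraries lay below every crypt library of the same region.

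Reg3g fell in LGR5 cells by 2.26 ± 0.53 (edgeR adjusted p = 0.00912; 0.0542 without ileum LGR5 1). Reg3b fell by 2.45 ± 0.70 (adjusted p = 0.0226; 0.0778 to 0.0991 without ileum LGR5 1, jejunum LGR5 1 or jejunum LGR5 2, and 0.0917 without the crypt libraries high in Xist). Leaving out the crypt libraries high in Xist sets only crypt libraries low in Xist against sorted libraries high in it, so it cannot separate Xist level from population. For Reg3g and Reg3b the LGR5 and crypt libraries of a region did not overlap. Jejunum LGR5 1, at 146 CPM of Reg3b, was just under jejunum crypt 3, at 150 CPM. Reg4 fell by 0.85 ± 0.29 over both regions (edgeR adjusted p = 0.0436), but its mean was not lower in the ileum, where the libraries overlapped. Its group means were 357 CPM in LGR5 and 341 CPM in crypt cells of the ileum, against 70.2 and 241 CPM in the jejunum. Its call was lost (adjusted p = 0.0574 to 0.17) without ileum crypt 2, the library labelled ileum crypt 3, ileum LGR5 1, jejunum CD166 1 or 2, jejunum crypt 1 or 3, or jejunum LGR5 1 or 2, and with total count scaling (0.076), which moved the median of all genes to 0.13.

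CD166 cells were higher in Reg4 and lower in Reg1 and Reg3a than crypt cells, 3 of 5 tested genes called, where 30.1% of genes were called, 13.6% higher and 16.5% lower. Reg4 rose by 1.48 ± 0.28 (2.80-fold, edgeR adjusted p = 0.00283), with every CD166 library above every crypt library of both regions. Reg3a fell by 4.35 ± 0.55 (20.4-fold, adjusted p = 0.000315) and no CD166 library reached a crypt library. Reg1 fell by 4.30 ± 1.08 (19.7-fold, adjusted p = 0.0122), but 6.85 CPM in ileum crypt 1 lay between the ileum CD166 values. The Reg1 difference was -3.16 (adjusted p = 0.0187) with the library labelled ileum crypt 3 left out, -3.43 (0.00287) without both of the alike pair and -3.36 (0.0403) by limma-voom. Its adjusted p was 0.0586, 0.0669 and 0.0648 without ileum CD166 1, ileum CD166 2 and jejunum CD166 1. Reg3b differed by -1.62 ± 0.67 and Reg3g by -1.16 ± 0.51, not called by edgeR (adjusted p = 0.0897 and 0.105). Reg3b was called without jejunum CD166 2 (-2.76, adjusted p = 0.0289) and Reg3g with the library labelled ileum crypt 3 left out (-1.38, adjusted p = 0.0361).

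Between the sorted populations Reg4 alone of the 5 tested genes was called. It was 5.05-fold higher in CD166 than in LGR5 cells (log2 2.34 ± 0.32, edgeR adjusted p = 0.00381), where 1.61% of genes were called, every one of them higher. The CD166 libraries did not overlap with the LGR5 libraries in either region. Reg1, Reg3a, Reg3b and Reg3g differed by 0.79 to 1.11, with standard errors of 0.53 to 1.03 and edgeR adjusted p of 0.578 to 0.851.

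Markers of several cell types also differed between the populations. Of all tested genes 13.6% were higher and 16.5% lower in CD166 than in crypt cells, and 13% and 18.5% in LGR5 than in crypt cells. Between CD166 and LGR5 cells 1.61% were called, all higher in CD166 cells. Of 22 enteroendocrine markers 15 were higher and 1 lower in CD166 than in crypt cells, and 16 were higher in CD166 than in LGR5 cells, with medians of 2.24 and 3.06 against 0.02 and 0.00 for all tested genes. Among them Gip rose by 4.49, Sst by 4.91 and Chgb by 2.17 against crypt cells. The summed enteroendocrine level was 1914 to 13057 CPM in CD166, 351 to 818 CPM in LGR5 and 347 to 1200 CPM in crypt libraries. In CD166 cells it did not overlap between the regions, at 1914 and 4990 CPM in the ileum against 10117 and 13057 CPM in the jejunum. Reg4 overlapped between the regions in those cells. All 20 enterocyte markers were lower in LGR5 and in CD166 than in crypt cells, with medians of -4.23 and -3.82. Of 15 Paneth markers tested, 5 were higher and 1 lower in CD166 than in crypt cells and 1 higher and 8 lower in LGR5 than in crypt cells. Among 14 goblet markers 3 were higher and 1 lower in CD166 than in crypt cells, in either direction near the 30.1% of all tested genes called. Between CD166 and LGR5 cells 0 goblet markers were called, with a median of 0.27. Of 12 tuft markers 9 were higher in CD166 and 5 in LGR5 than in crypt cells, with none lower. Lymphocyte markers summed to 6.89 to 56.7 CPM in CD166, 10.4 to 36.2 CPM in LGR5 and 170 to 12025 CPM in crypt libraries. The part of these cells in the Reg differences was not tested.

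**Figure D4:**
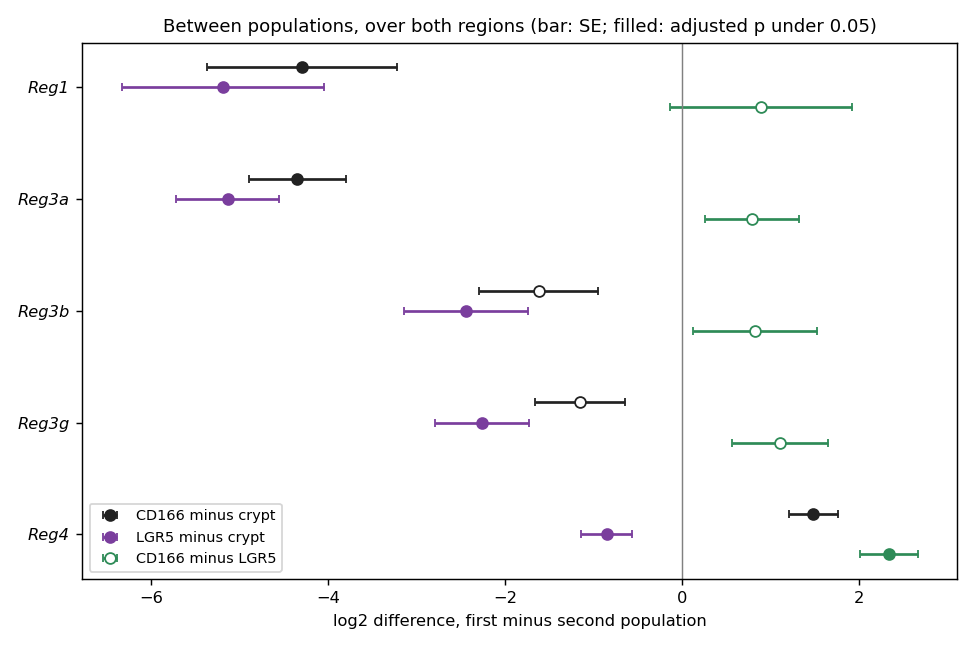
Log2 difference between populations, over both regions, of 5 Reg genes; points are edgeR estimates, bars are ± 1 SE and filled points have an adjusted p under 0.05. Reg1 and Reg3a lie near -4 to -5 in both sorted populations against crypt cells, and Reg4 lies at 1.48 and 2.34 for CD166 against crypt and LGR5 cells.

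Per length, the leading Reg gene changed with region and population. CPM were divided by the length of the longest coding transcript, 698 bases for Reg2 to 1021 bases for Reg4. In CD166 cells Reg3b led in the ileum with a group mean of 822 CPM per kb, ahead of Reg3g and Reg4 at 752 CPM per kb each, and Reg4 led in the jejunum with 817 CPM per kb, ahead of Reg3b at 198. In LGR5 cells Reg4 led in the ileum with 350 CPM per kb, ahead of Reg3b at 306, and Reg3b led in the jejunum with 170 CPM per kb, ahead of Reg3g at 107. Crypt cells were led by Reg3b in the ileum with 2512 CPM per kb and by Reg1 in the jejunum with 3141 CPM per kb. Neighbours such as Reg3b, Reg3g and Reg4 in ileum CD166 cells did not differ beyond their spread between libraries.

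Within single libraries the make-up was less even than those means. Reg1 took 77.1% and 73.8% of the summed Reg CPM per kb in jejunum crypt 2 and 3 but 12.3% in jejunum crypt 1, and 0.13%, 0.56% and 12.3% in the ileum crypt libraries. Reg4 took 77.1% in jejunum CD166 1 and 51.7% in jejunum CD166 2, against 20.2% and 46.3% in ileum CD166. The family made up 0.0922% to 0.218% of the counts of CD166, 0.0379% to 0.121% of LGR5 and 0.192% to 0.623% of crypt libraries.

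**Figure D5:**
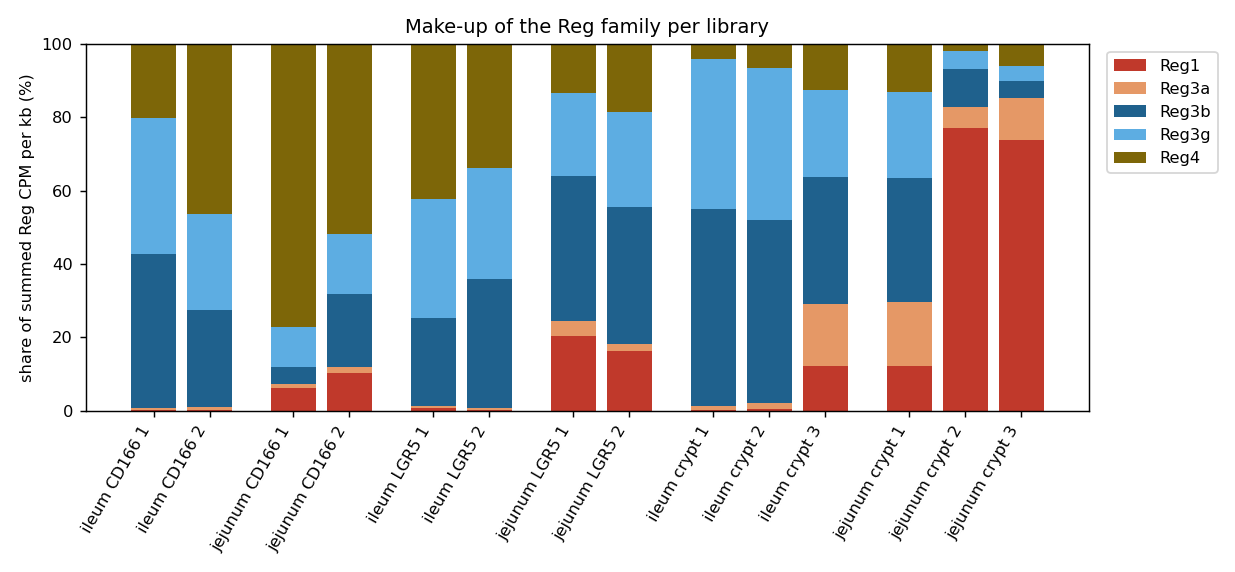
Share (%) of each Reg gene in the summed Reg CPM per kb of each library, with CPM divided by the length of the longest coding transcript; each bar is 1 library, ordered by population and region, and Reg2 and Reg3d are in the sum but too low to be seen. Reg1 fills 77.1% and 73.8% of jejunum crypt 2 and 3, and jejunum crypt 1 and the library labelled ileum crypt 3 have nearly the same make-up.

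The genes whose pattern over the 14 libraries was most like each Reg gene were taken from 9968 tested genes outside the family with a mean of at least 3 on the log2 CPM scale, by Pearson correlation of log2(CPM + 1). Reg1 was most like Gstm6 (0.98), Fabp1 (0.97), named above, Adh6a, Fth1 and Cyp2c66 (0.96 each). Reg3a was most like Slc5a11 and Akr1b7 (0.99 each), Gnpda1, Slc27a4 and Gda (0.98 each). Reg3b and Reg3g shared Bcl2l15 (0.89 and 0.92), Pof1b (0.86 and 0.92), Nr1h4 (0.84 and 0.91), the bile acid receptor gene, and Gsdmc2 (0.84 and 0.89) among their nearest 5. Reg4 was most like Peg3 (0.94), Sct (0.93), which encodes the hormone secretin, Slc18a1 (0.92), a vesicular monoamine transporter, Pla2g2f (0.90) and Disp2 (0.89). Among members, Reg1 and Reg3a correlated at 0.78, Reg4 and Reg3g at 0.35 and Reg1 and Reg3g at -0.26. These are descriptions over libraries that share groups and depth.

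Other defence genes were counted beside the Reg genes. Of 20 antimicrobial and barrier genes tested (25 listed), 4 were higher and 1 lower in the ileum over the populations, with a median of 1.29 against -0.01 for all genes. Duox2 and its maturation factor Duoxa2, which make hydrogen peroxide at the epithelial surface, rose by 2.39 ± 0.54 and 2.66 ± 0.52 (edgeR adjusted p = 0.0284 and 0.0166). The mRNA of Pla2g2a, a phospholipase gene, rose by 1.56 ± 0.40 (edgeR adjusted p = 0.0465). That of Lbp, whose product binds lipopolysaccharide, rose by 1.63 ± 0.36 (edgeR adjusted p = 0.0272). Activity of the proteins was not measured. Il18, a cytokine of the epithelium, fell by 1.70 ± 0.44 (adjusted p = 0.0478). In LGR5 against crypt cells 7 of the 20 fell, among them Lyz1 by 1.56 ± 0.41, and none rose. In CD166 against crypt cells 2 rose and 4 fell. Counted in either direction, these were near the 31.5% and 30.1% of all tested genes called in those comparisons. In CD166 against LGR5 cells 3 rose, Lyz1 by 2.44, Ang4 by 2.54 and Itln1 by 2.41, where 1.61% of all tested genes were called higher.

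Genes that carry the signals known to drive Reg3 were counted too. Of 22 tested receptors, adaptors and transcription factors of the interleukin 22, 17 and 6 and MyD88 pathways (24 listed), 2 were higher in the ileum over the populations, Il6ra by 2.18 ± 0.50 and Tlr5, the flagellin receptor, by 2.39 ± 0.57, and none was lower. In LGR5 cells 2 were higher and 10 lower than in crypt cells, and likewise in CD166 cells. Of all tested genes 13% were higher and 18.5% lower in LGR5 cells, and 13.6% and 16.5% in CD166 cells. Stat3 fell by 0.93 ± 0.21 in LGR5 cells and by 0.98 ± 0.21 in CD166 cells, and Il22ra1, a subunit of the interleukin 22 receptor, by 0.67 ± 0.20 and 0.75 ± 0.20. Il22 itself was at 0 in all 14 libraries. Of 13 tested targets of interleukin 22 and STAT3 outside the Reg family (16 listed), 2 were higher and 1 lower in the ileum, the Duox pair and Il18 already named. In LGR5 cells 0 were higher and 3 lower than in crypt cells, and in CD166 cells 1 was higher and 4 lower. Counted in either direction, these target counts were near the 31.5% and 30.1% of all tested genes called there. Extl3, a proposed Reg receptor, was at 38.6 to 51.8 CPM in CD166, 43.1 to 57.1 CPM in LGR5 and 24.8 to 41.0 CPM in crypt libraries, and was higher by 0.50 ± 0.14 in LGR5 than in crypt cells (edgeR adjusted p = 0.0198).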

How the data were processed

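RNA-seq of 14 mouse libraries was analysed from gene tables. The deposited expected counts per gene were made by the authors from 50-base single-end TruSeq reads, per the labels' protocols, on mm9, per the submitters' processing notes, which also name DESeq; no aligner or annotation is named there. Of the values above 0, 50.6% were whole within 0.001. The deposited RPKM columns were not used.

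Counts were rounded and tested with edgeR 4.0.16 in R 4.3.3 (glmQLFit, robust, and glmQLFTest; TMM; filterByExpr with a minimum count of 10 and total of 15) in 1 model of 6 groups, with Benjamini-Hochberg adjustment over 14750 genes. Normalised CPM are TMM-scaled. A gene is called at an adjusted p under 0.05. The SE is the log2 difference divided by the square root of F. The fit was tested on simulated counts. DESeq2 1.42.0, limma-voom (limma 3.58.1), other filters and scalings, the replicate number as a block and leaving out each library were alternatives. The members and gene lists were chosen with earlier results of these data known. All 6 Reg genes were named; other lists gave up to 4 called genes of highest level, and markers set beside a Reg gene were chosen after their values were seen. Transcripts were GENCODE M21.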

Additional observations from a re-analysis of the deposited data

How the results depend on the processing

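The count of Reg genes called was recomputed under up to 25 alternatives. With DESeq2 it was 5 over the populations, 2 in crypt, 2 in LGR5, 1 for the interaction and 5 for CD166 against crypt cells, against 2, 0, 1, 0 and 3 by edgeR. The ranges given below for all tested genes include DESeq2. They therefore cannot show whether its counts are particular to the Reg genes. Without a low-count filter the count of Reg genes called was 1 over the populations (Reg4). Without the alike crypt pair it was 4 over the populations, 3 in crypt and 2 in LGR5 cells. In LGR5 cells it was 2 with the compared groups only, and 0 by limma-voom and with total count scaling. Leaving out 1 library at a time gave 0 to 4 over the populations, 0 to 3 in crypt, 0 to 1 in LGR5, 2 to 5 for LGR5 against crypt and 2 to 4 for CD166 against crypt cells; it gave 0 in CD166 cells and 1 for CD166 against LGR5 cells throughout. Deviations from the group mean correlated at -0.52 to 0.42 between same-numbered libraries of the 2 regions. With 2 libraries in each sorted group the same-numbered and crossed values are mirror images, and in crypt cells the alike pair enters them. These correlations therefore cannot decide whether the numbers pair libraries. With the replicate block the counts were 3 over the populations, 0 in crypt, 1 in LGR5, 0 in CD166 cells, 0 for the interaction, 5 for LGR5 against crypt, 4 for CD166 against crypt (Reg3b and Reg3g called, Reg1 not) and 1 for CD166 against LGR5 cells. The block moved Reg1 to -3.56 (adjusted p = 0.0337) in LGR5 and -2.92 (adjusted p = 0.0534) in CD166 against crypt cells. With crossed numbers of the sorted libraries, an alternative added after seeing the data, they were 2, 0, 1, 0, 0, 4, 4 and 1. The share of all tested genes called ranged over the alternatives from 0.889% to 9.57% over the populations, 0% to 5.87% in crypt, 0.0129% to 12.2% in LGR5 and 0% to 4.14% in CD166 cells, 0% to 0.485% for the interaction, 15.6% to 37.3% and 16.3% to 39.2% for LGR5 and CD166 against crypt, and 0.546% to 4.16% for CD166 against LGR5 cells.

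Of 990 recomputed differences and interaction tests of single Reg genes, 898 kept direction and call, 52 lost a call, 35 gained one and 5 changed sign, none of those 5 called. Reg3a in CD166 cells was 0.12 between the regions without jejunum CD166 2, and leaving out 1 library at a time gave -1.29 to 0.12. Reg3b was -0.31 between CD166 and LGR5 cells without jejunum CD166 2 (range -0.31 to 1.36), and -0.23 between the regions in LGR5 cells without ileum LGR5 2 (range -0.23 to 1.46). Reg4 in CD166 cells was 0.26 without ileum CD166 1 and 0.0365 without jejunum CD166 2 (range -0.66 to 0.26). The cause was not tested. With 2 or 3 libraries a group, differences within 1 population have wide errors.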
